A study of Mus musculus with 2 samples.

Results

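Glutathione S-transferases are the enzymes that join glutathione to reactive and electrophilic compounds. A list of 10 members of this family was fixed by symbol for this description, and 8 of the 10 had a row among the 14197 genes of the table. These were Gsta1, Gsta4, Gstm1, Gstm2, Gstm5, Gstp1, Gsto1 and Mgst1. Gsta2 and Gstt2 were dropped by that rule and were not analysed here. The RNA came from 4T1 cells, a wild-type murine breast cancer line kept in culture. One group received 20 μM astragalin (AS), a plant flavonoid, for 24 h, and the other received the vehicle. Each condition had 1 library, so no difference below has a replicate check and no p-value is given. Anything else that differed between the cultures cannot be told apart from AS.

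The cytosolic transferases fall into classes named after Greek letters, and the microsomal ones form a separate family of membrane proteins. Alpha and mu class enzymes handle products of lipid peroxidation and many plant and drug compounds, and the conjugates are pumped out of the cell by transporters of the ABCC family. In rodents the genes of several classes are known targets of NRF2, a transcription factor of the oxidative stress response, and some respond to the aryl hydrocarbon receptor, which binds flat aromatic compounds.

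Levels are given in RPKM, the reads that fell on a gene divided by its exon length and by the library size, so that genes can be compared per length. The library sizes behind these values were 44909683 reads with AS and 50820728 with the vehicle. Fold changes are on the log2 scale and set AS over vehicle with 0.1 RPKM added to each level, which understates the change of low genes. Intervals are 95% Clopper-Pearson intervals of the log2 ratio of the reads with nothing added, and they cover counting error only. Reads without molecular identifiers are not independent molecules. The cells carried the keratin and adhesion genes of a mammary epithelial line, with 8 of 8 such markers in the table and a summed level of 1823 RPKM with AS and 2327 with the vehicle, of which Krt18 was the most abundant. Of 6 leukocyte markers 5 had a row, with a summed level of 29.6 RPKM with AS and 33.1 with the vehicle. Cd68, a lysosomal protein, made up most of it, at 24.0 and 28.1 RPKM. Cd14 was at 2.62 and 2.61 RPKM, Lyz2 at 2.47 and 1.85, and Csf1r at 0.378 and 0.358. Ptprc, which defines leukocytes, was at 0.116 and 0.114 RPKM. Of 6 fibroblast markers 4 had a row, at a summed 6.08 and 5.67 RPKM, led by Pdgfra. None of the 4 endothelial, 4 hepatocyte and 3 adipocyte markers had a row, so these lists gave no summed level. The part of these markers in the results was not tested.

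With AS, the alpha class genes Gsta1 and Gsta4 and the mu class gene Gstm1 were higher by more than a log2 fold change of 1, the fold limit named in the study's methods. No member was lower by as much. Mgst1 stood below that limit, and Gstm2, Gstp1, Gsto1 and Gstm5 had values between -0.01 and 0.36. The 3 of 8 members above the limit stand beside 0.662% of all genes above it, and the 0 of 8 below beside 0.31% of all genes below it. The median log2 fold change of the 8 members was 0.59, beside 0.07 over all genes of the table, of which 60.9% were higher with AS.

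Promoter sequence is shown for Gsta1 and Gstm1, which were above the limit, and for Mgst1 and Gstm5, whose windows hold the antioxidant response element core. RefSeq windows of 300 bases (250 before and 50 after each start, build GRCm38.p6) matched 7 of the 8 members with 9 windows. Gsta4 was not matched. The sequences below are written 5′ to 3′ on the strand of the gene, and each of the Gsta1, Gstm1 and Gstm5 sequences is cut where the gene begins in GENCODE M21. Capitals mark matches to TGACNNNGC, the core of the antioxidant response element bound by NRF2, or to GCGTG, the core bound by the aryl hydrocarbon receptor, on either strand. The Gsta1 sequence is chr9:78230419-78230655 on the plus strand and that of Gstm1 is chr3:108017974-108018223 on the minus strand. The Gstm5 sequence is chr3:107895604-107895820 on the plus strand. For Mgst1 the match lies downstream of the first start annotated in GENCODE M21, and it is shown with 10 flanking bases on each side, chr6:138140461-138140489 on the plus strand.
Gsta1: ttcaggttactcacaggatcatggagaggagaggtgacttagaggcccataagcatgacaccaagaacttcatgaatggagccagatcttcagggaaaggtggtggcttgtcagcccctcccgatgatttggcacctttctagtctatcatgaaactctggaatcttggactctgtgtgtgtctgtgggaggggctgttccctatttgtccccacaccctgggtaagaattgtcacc
Gstm1: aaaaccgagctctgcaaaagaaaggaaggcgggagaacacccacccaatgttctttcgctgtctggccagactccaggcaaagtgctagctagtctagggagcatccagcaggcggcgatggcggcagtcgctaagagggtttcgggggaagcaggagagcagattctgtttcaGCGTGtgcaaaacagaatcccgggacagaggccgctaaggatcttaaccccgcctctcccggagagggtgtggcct
Gstm5: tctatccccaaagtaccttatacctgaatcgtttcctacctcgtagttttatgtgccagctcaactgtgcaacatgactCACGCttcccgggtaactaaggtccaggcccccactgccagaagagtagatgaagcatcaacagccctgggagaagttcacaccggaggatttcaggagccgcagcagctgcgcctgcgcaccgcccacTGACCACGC
Mgst1: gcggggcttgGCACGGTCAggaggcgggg

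TGACNNNGC was found in 2 of the 7 members, Mgst1 and Gstm5, beside 17% of the 9680 genes of the table with a window, and in 12.4% of all 32851 promoter windows. GCGTG was found in 4 members, Gsta1, Gstm1, Gstm5 and Gstp1, that is in 4 of 7, beside 56.4% of the genes of the table and 32.4% of all windows, so the members were near the share of the other genes of the table. In Gsta1 this match starts 2 bases before the RefSeq start and lies outside the stretch printed above. In Gstm5 one of the GCGTG matches lies inside the TGACNNNGC match. TGATGNAA, a spelling of the element shared by C/EBP and ATF factors, was in 0 of the 7 members, in 2.56% of the genes of the table and in 3.97% of all windows. Gstm2 and Gsto1 had none of these matches in their windows. These are matches of letters in a short window and not sites of binding.

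Gsta1 encodes an alpha class subunit with glutathione transferase and peroxidase activity and sits on the plus strand of chromosome 9 (GRCm38, 78230656 to 78242684). Its level was 11.7 RPKM with AS and 2.92 RPKM with the vehicle, from 501 and 142 reads. It was the lowest of the 8 members in the vehicle library and the seventh in the AS library. The log2 fold change was 1.96, with an interval of the reads from 1.73 to 2.28, and it was number 7 of all genes by rise. The transcript of Gsta1 is close to those of its neighbours. Of the 905 different runs of 50 bases in its annotated transcripts, 90.5% also occur in transcripts of another gene. Of the 905 runs, 75.7% occur in Gm3776, 46.6% in Gsta2 and 31.3% in Gm10639. Of its runs of 100 bases, 80.6% occur in another gene. How reads that match several genes were counted is not given in the sources used here, so the level of Gsta1 is uncertain. Gm3776, chosen after its values were seen, had 4.61 RPKM with AS and 1.37 RPKM with the vehicle. When the reads of Gsta1 and Gm3776 were summed, to 682 with AS and 203 with the vehicle, the log2 ratio was 1.93, with an interval from 1.70 to 2.16. This sum covers the overlap with Gm3776 only, and not that with Gsta2 and Gm10639.

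Gsta4 encodes the alpha class enzyme that conjugates 4-hydroxynonenal, a product of lipid peroxidation, and lies 21.3 kb upstream of Gsta1, from 78182774 to 78209349 on the same strand. Its level was 169 RPKM with AS and 78.1 RPKM with the vehicle, from 9581 and 5026 reads. Gsta4 was the most abundant member in both libraries. The log2 fold change was 1.11, with an interval from 1.06 to 1.16. No run of 50 bases in its transcripts was found in a transcript of another gene, so the uncertainty of Gsta1 does not extend to it. Its interval did not overlap that of Gsta1, and the log2 ratio of the reads was 0.89 higher for Gsta1.

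**Figure D1:**
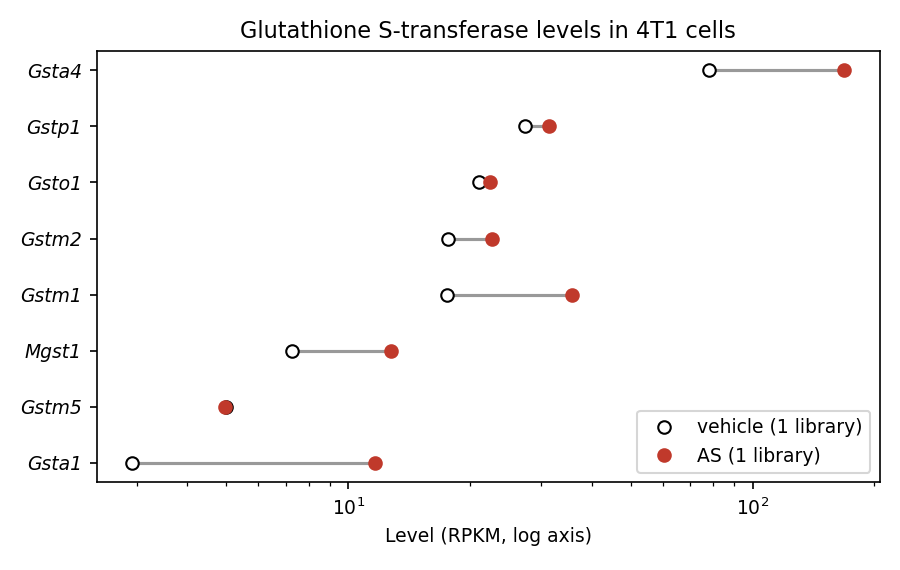
Level of each glutathione S-transferase in RPKM (log axis), with 1 library of 4T1 cells per condition; open circles are the vehicle, red circles AS, and grey lines join the values of a gene. Gsta4 is the highest in both libraries, at 78.1 and 169 RPKM, Gsta1 moves from the lowest place, and the circles of Gstm5 lie on each other.

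The mu class genes lie together on chromosome 3, and they did not move alike. Gstm1, from 108012255 to 108017973 on the minus strand, had 35.9 RPKM with AS and 17.5 RPKM with the vehicle, from 2372 and 1311 reads. Its log2 fold change was 1.03, with an interval from 0.94 to 1.13 that includes 1. With TMM scaling of the recovered reads it was 0.97, and with 1 RPKM added it was 0.99, so its place above the limit depends on these settings. Gstm2 is separated from Gstm1 by 25.8 kb, reaches from 107981702 to 107986453 on the same strand, and had 22.7 RPKM with AS and 17.6 RPKM with the vehicle, from 1714 and 1506 reads. For Gstm2 this gave a log2 fold change of 0.36, with an interval from 0.26 to 0.47. In the vehicle library the levels of Gstm1 and Gstm2 differed by less than their counting intervals, and in the AS library the interval of Gstm1 lay above that of Gstm2. Gstm5, from 107895821 to 107898686 on the plus strand, had 4.95 RPKM with AS and 4.99 RPKM with the vehicle, from 284 and 324 reads. Its log2 fold change was -0.01, with an interval from -0.25 to 0.22. Of the runs of 50 bases of Gstm1, 18.9% occur in transcripts of other genes, against 5.65% for Gstm2 and 0 for Gstm5. Gstm2-ps1, a pseudogene by its name, holds 14.1% of the Gstm1 runs, Gstm3 8.16% and Gm8834 5.86%.

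Gstp1 encodes the pi class enzyme, which is abundant in many carcinomas, and sits on the minus strand of chromosome 19 (4035407 to 4037985). Its level was 31.4 RPKM with AS and 27.4 RPKM with the vehicle, from 2185 and 2154 reads. It was the second most abundant member with the vehicle and the third with AS. The log2 fold change was 0.20, with an interval from 0.11 to 0.29. Gstp1 shares 33.7% of its runs of 50 bases with Gstp2, which was named for this overlap after its values were seen and had 1.08 RPKM with AS and 0.866 RPKM with the vehicle. Gsto1 encodes the omega class enzyme, which has thioltransferase and dehydroascorbate reductase activity, and sits on the plus strand of chromosome 19 (47854970 to 47864790). Its level was 22.5 RPKM with AS and 21.1 RPKM with the vehicle, from 2041 and 2169 reads. For Gsto1 this gave a log2 fold change of 0.09, with an interval from 0.003 to 0.18, which includes the median of all genes.

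Mgst1 encodes a membrane-bound transferase of the endoplasmic reticulum and the outer mitochondrial membrane that also reduces lipid hydroperoxides. The gene sits on the plus strand of chromosome 6 (138140316 to 138156755). Its level was 12.8 RPKM with AS and 7.25 RPKM with the vehicle, from 1157 and 742 reads. This gave a log2 fold change of 0.81, with an interval from 0.69 to 0.95 that stays below 1. At a ratio of 1.5, the other fold limit in the study's methods, 4 of the 8 members were higher, the fourth being Mgst1, beside 3.56% of all genes, and 0 were lower, beside 2.01%.

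Ordered by log2 fold change, the members ran from Gsta1 through Gsta4, Gstm1, Mgst1, Gstm2, Gstp1 and Gsto1 to Gstm5. The counting intervals of neighbours in this order were apart between Gsta1 and Gsta4 and between Mgst1 and Gstm2, and overlapped for the other pairs. Among all genes, Gsta4 was number 65, Gstm1 number 86 and Mgst1 number 216 by rise.

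**Figure D2:**
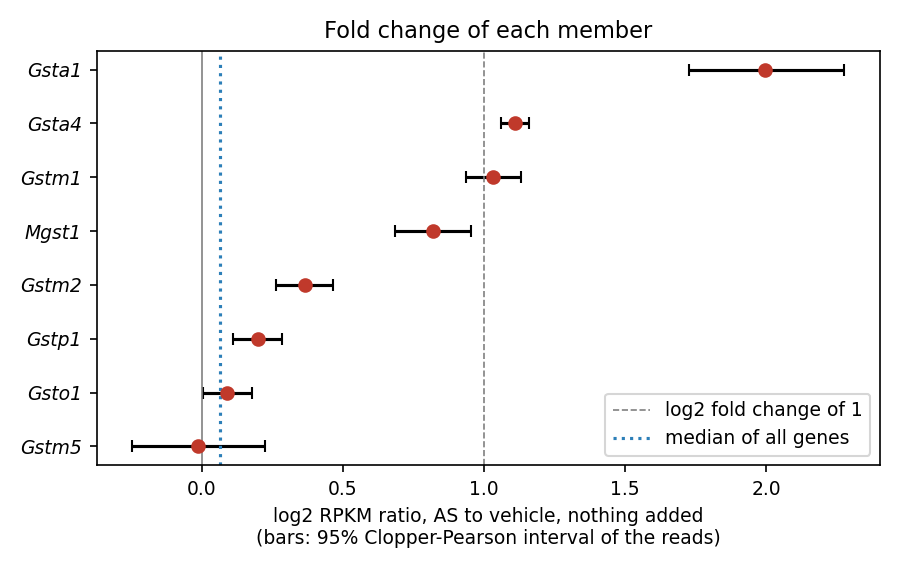
log2 RPKM ratio of AS to vehicle with nothing added (x axis) for each member, with 95% Clopper-Pearson intervals of the reads as bars; the dashed line is a log2 fold change of 1 and the dotted line the median of all genes, 0.07. The intervals of Gsta1 and Gsta4 lie above 1, that of Gstm1 includes 1, and that of Mgst1 lies between 0.69 and 0.95.

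**Figure D3:**
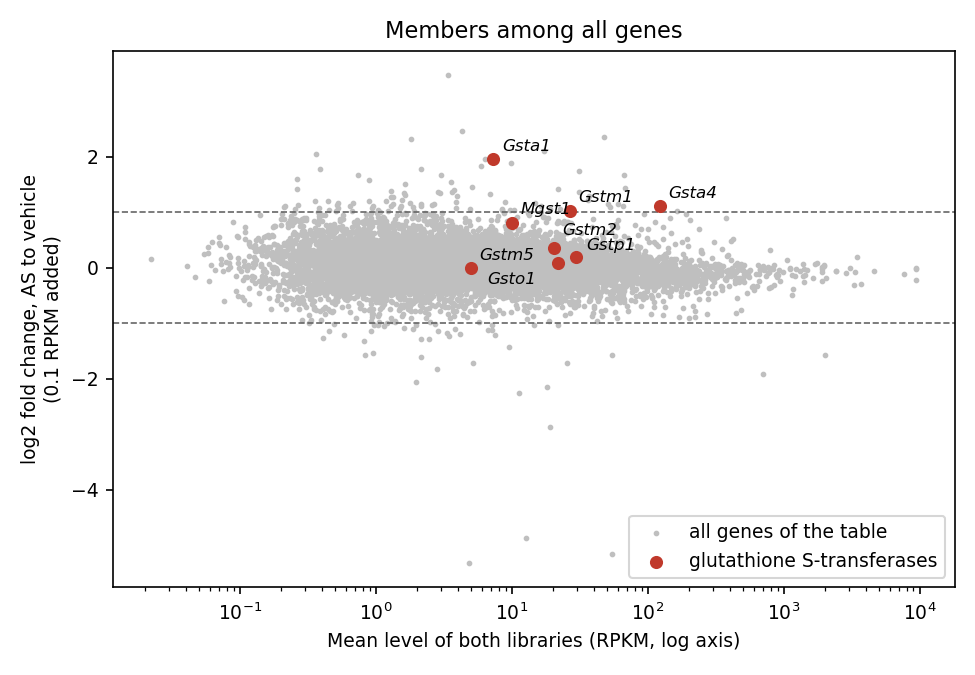
log2 fold change with 0.1 RPKM added (y axis) against the mean level of both libraries in RPKM (log axis) for all 14197 genes in grey and the 8 members in red; dashed lines are log2 fold changes of 1 and -1. Gsta1, Gsta4 and Gstm1 lie above the upper line and no member lies below the lower one.

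Among the listed genes with a row, the alpha class made up more of the summed level with AS. The 8 members and the 9 genes of the list of other transferases summed to 340.3 RPKM with AS and 203 with the vehicle. The ratio of these sums was 1.68. The 9 include Gstcd, Ptges and Ptges2, which were given no class and had 7.98 RPKM together with AS and 6.91 with the vehicle. The alpha class, Gsta1 and Gsta4, made up 52.9% of the whole sum with AS and 39.9% with the vehicle. Gm3776 was not in these lists and is not part of the sum. Gsta4 alone accounted for 65.9% of the difference between the sums, Gstm1 for 13.4% and Gsta1 for 6.37%. The summed level of the mu class was 63.5 and 40.2 RPKM, and that of the microsomal class 24.1 and 17.0 RPKM. The pi class was at 32.5 and 28.2 RPKM and the omega class at 26.1 and 24.8 RPKM. The share of the sum was lower with AS for each class other than alpha, at 18.7% and 19.8% for mu, 7.09% and 8.35% for microsomal, 9.55% and 13.9% for pi and 7.68% and 12.2% for omega. In bulk RNA, more cells that express a gene and more RNA per cell cannot be told apart.

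**Figure D4:**
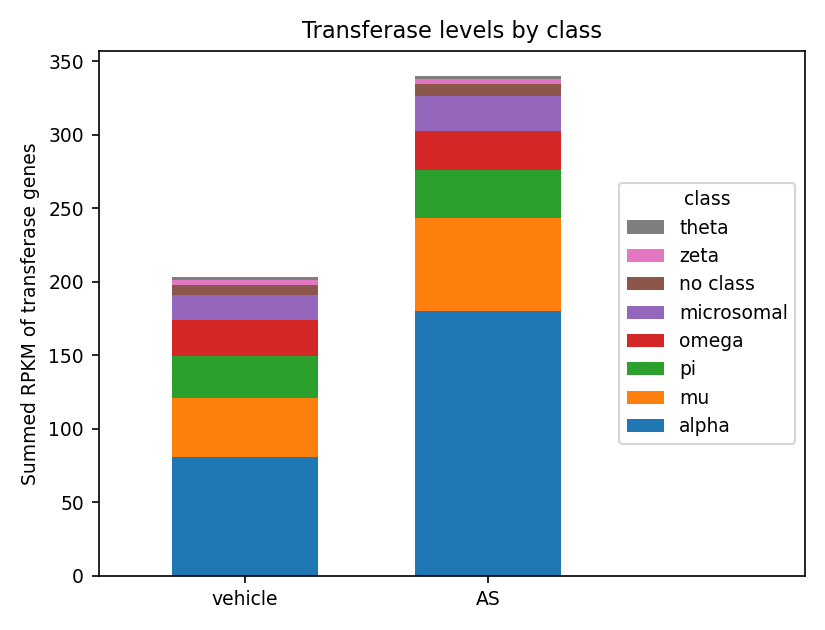
Summed RPKM of the transferase genes in the table by class, stacked from 0, for the vehicle and the AS library (1 each); "no class" holds Gstcd, Ptges and Ptges2. The sum is 203 RPKM with the vehicle and 340.3 with AS, and the alpha class grows from 81.0 to 180.2 RPKM. Gm3776 is not included.

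The other transferases of the fixed list, Gstcd, Ptges and Ptges2 among them, had 9 of 21 genes in the table. Of these, 0 were beyond a log2 fold change of 1 upward or downward. Over all genes 0.662% were above 1 and 0.31% below -1, so a count of 0 in so short a list is near that share. The median of the 9 was 0.16. Mgst2, a microsomal enzyme that can also make leukotriene C4, had the highest value of 0.69, with 3.30 RPKM with AS and 2.01 RPKM with the vehicle. Gstt3 followed, with 2.10 and 1.64 RPKM. The lowest values were 0.003 for Gsto2 and 0.06 for Mgst3.

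Of the genes that make, import and break down glutathione, 14 of 19 had a row, and the median was 0.18. In this list 3 were higher by more than 1 and 0 lower, beside 0.662% and 0.31% of all genes. Slc7a11, the cystine carrier of the xc- exchanger, had 6.31 RPKM with AS and 0.478 RPKM with the vehicle. Its partner Slc3a2 had 99.6 and 36.8 RPKM, a log2 fold change of 1.43. Gclc, the catalytic subunit of the rate-limiting enzyme of glutathione synthesis, had 12.3 and 5.33 RPKM, a log2 fold change of 1.19. The other subunit, Gclm, had a log2 fold change of 0.22 and was named after its value was seen.

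The glutathione peroxidases and glutaredoxins had 8 of 12 genes in the table, with 0 beyond 1 in either direction and a median of -0.08. Gpx1, the main cytosolic peroxidase, had 140.03 RPKM with AS and 183.7 RPKM with the vehicle, so its log2 fold change was -0.39, and that of Gpx8 was -0.33. The highest values were 0.20 for Gpx3 and 0.19 for Glrx2. Of the genes for export and later processing of conjugates, 10 of 16 had a row, with a median of 0.17. Here too 0 passed 1 in either direction. With 0.662% of all genes above 1 and 0.31% below -1, a count of 0 in either list is near that share. Abcc4 and Abcc3, pumps for organic anions and conjugates, had the highest log2 fold changes, 0.65 and 0.52. The lowest were those of Acy1, an aminoacylase, at -0.33 and Abcg2 at -0.21.

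Of 26 other NRF2 target genes 25 had a row, and the median was 0.33. Of these, 2 were higher by more than 1 and 0 lower, beside 0.662% and 0.31% of all genes. Values in this list ran from -0.51 to 1.77, and 14 of the 25 were above the median of all genes. Nqo1, a quinone reductase, had 3.36 RPKM with AS and 0.912 RPKM with the vehicle, so that its log2 fold change was 1.77. Aox1, an aldehyde oxidase, had 3.60 and 1.59 RPKM, a log2 fold change of 1.13. With 1 RPKM added, Aox1 was no longer above the limit. The genes that control NRF2 were all 8 in the table, and their median was 0.25. Of these, 0 were beyond 1 in either direction, which is near the share of all genes. In this list Nfe2l1, a relative of NRF2, had the highest log2 fold change of 0.83 and Mafg, a binding partner, followed with 0.49. Maff had the lowest with -0.07, and Keap1, the repressor of NRF2, had -0.01. Of 10 genes of the aryl hydrocarbon receptor and its targets 6 had a row, among them Nqo1 again, and the median was 0.40. Of these, 2 were higher by more than 1 and 0 lower, beside the shares of all genes given above. Values ran from 0.0003 to 2.36, and 3 of the 6 were above the median of all genes. Aldh3a1, an aldehyde dehydrogenase, had 80.1 RPKM with AS and 15.6 RPKM with the vehicle, so that its log2 fold change was 2.36. Tiparp, a target of this receptor that was named after its value was seen, had 7.97 RPKM in both libraries.

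**Figure D5:**
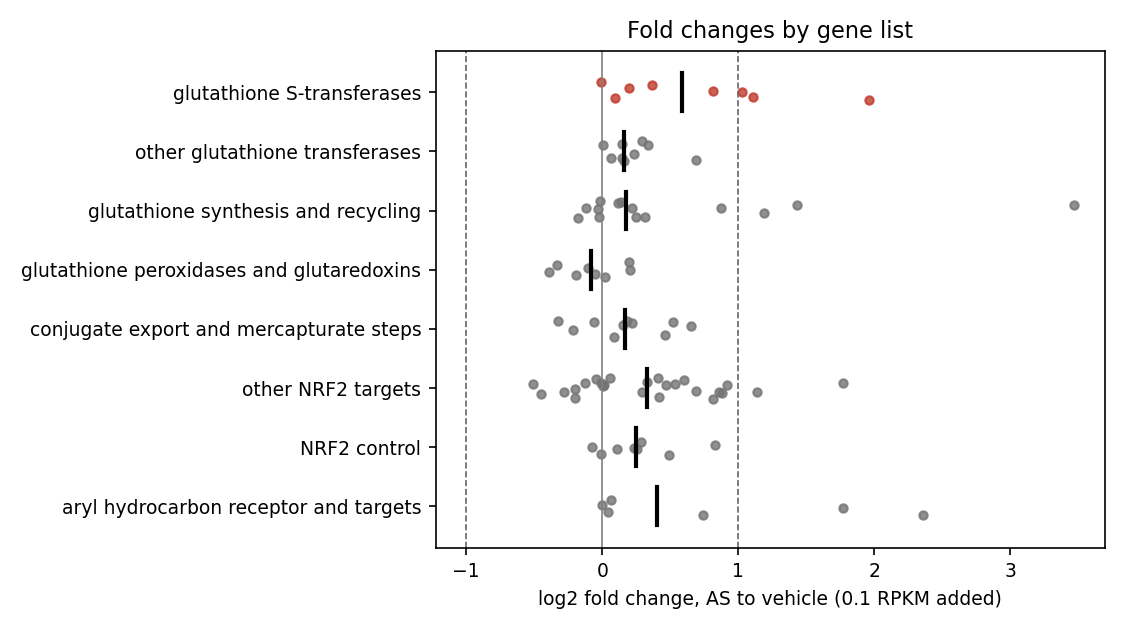
log2 fold change of AS to vehicle with 0.1 RPKM added (x axis) for the genes of each list; dots are genes, red for the 8 glutathione S-transferases, black bars are medians and dashed lines mark -1 and 1. The median is 0.59 for the members and between -0.08 and 0.40 for the other lists.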

How the data were processed

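The authors deposited 1 table with the RPKM of each library, a log2 of the mean CPM over both, and 3 columns of their own comparison (log2 fold change, p-value and FDR), which were not used. The submitters' processing notes name fastp 0.23.4, STAR 2.5.3a, featureCounts and GRCh38, a human build. The header names no unit, and RPKM was found from the values: with the summed exon lengths of GENCODE M21 (GRCm38), RPKM gave whole reads in both libraries for 94.2% of 13502 genes, all 8 members among them, within 1e-06 of the value. Coordinates are those of GENCODE M21. Reads were recovered for 97.5% of the genes, with the mean log2 CPM of the authors where the length did not match. Recovery and fold calls were checked on simulated data.

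Fold changes took 0.1 RPKM as the added amount and a log2 limit of 1. With 1 library per condition no test was made. Intervals of levels were exact 95% Poisson intervals. Alternatives were 0 or 1 RPKM added, 4 scalings of the recovered reads, filters at 1 RPKM or 100 reads, thinning, a limit of 1.5-fold and, chosen after seeing the data, summing Gsta1 with Gm3776.

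The members and lists were chosen with earlier results of these data known. Genes named are all members, and in the other lists those beyond 1 or, with none, the 2 highest and 2 lowest. Python 3.11.15 was used.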

Additional observations from a re-analysis of the deposited data

How the results depend on the processing

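The number of members above a log2 fold change of 1 was 3 with 0 RPKM added, with scaling to library totals, with both filters and with thinning. It was 2 with 1 RPKM added and with TMM, median-of-ratios or upper-quartile scaling, where Gstm1 had log2 fold changes from 0.96 to 0.99, and 4 at a limit of 1.5-fold. The number below was 0 in each of these. Over all genes the share above 1, 0.662% in the report, was 1.13% with 0 added, 0.953% with library totals, 0.982% with thinning, 0.573% and 0.47% with the filters at 1 RPKM and 100 reads, 0.268% with 1 RPKM added, 0.78% with TMM or median-of-ratios scaling, 0.766% with upper-quartile scaling and 3.56% at 1.5-fold. The genes above and below, 94 and 44 of 14197, were 161 and 66 with 0 added, 38 and 16 with 1 RPKM added, 59 and 11 of 12549 at 100 reads, 108 and 68 of 13847 with TMM or median-of-ratios scaling and 106 and 72 with upper-quartile scaling. The median of the members ranged from 0.51 with upper-quartile scaling to 0.59. Upper-quartile scaling moved the median of all genes most, to -0.01. Gsta1 was at 1.69 with 1 RPKM added, and Gsta4 at 1.03 with upper-quartile scaling. The genes of the other lists above the limit, 6 of 79, were 5 with 1 RPKM added, where Aox1 was no longer above it. At a limit of 1.5-fold they were 17, since that limit is lower. The interval of Gstm5 included 0 and that of Gsto1 the median of all genes, so at this depth no difference from most genes was detectable for them. No paired analysis was possible because each condition had 1 library.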
